A study of Mus musculus with 27 samples.

Results

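Axon guidance genes encode the cues and receptors that steer growing nerve fibres, and 59 such genes were followed across 27 mouse prostate tumours: the semaphorins with their plexin and neuropilin receptors, the Slits with the Robos, the netrins with Dcc and the Unc5 receptors, and the ephrins with the Eph receptors. Each was read from a table row with a single gene symbol, taking the row with the highest mean where a gene had several. Of the 59 genes, 58 were measured, out of 22180 genes in all; Ephb2, a receptor for B-type ephrins, is not named in the probe table and was not analysed here.

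All tumours form 1 group. They were taken from transgene-positive F2 males of a cross between C57BL/6-Tg(TRAMP)8247Ng/J and PWK/PhJ mice, bred from transgene-negative sires and transgene-positive dames. No normal prostate or transgene-negative sample was analysed here. In the TRAMP transgene the rat probasin promoter, active in prostate epithelium, drives the SV40 T antigens. Tumour growth was assessed when males were 30 weeks old or had reached a humane endpoint, so age can differ between tumours, and the age of each male is not given in the labels. Total RNA of snap-frozen tissue went on 1 GeneChip per tumour, and tumours are named here by their label (P425, P471). Nothing in the labels states that every tumour came from a separate male, so p-values measure only the spread between these samples. In bulk tissue, fewer cells of a type and less RNA per cell cannot be told apart.

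Semaphorins are secreted or membrane-bound ligands that signal through plexins, with neuropilins as co-receptors for most of the secreted ones. Slits act on Robo receptors, and netrins act on Dcc, which mostly attracts axons, and on Unc5 receptors, which mostly repel them. Ephrins stay on the cell surface and signal to Eph receptor tyrosine kinases on the neighbouring cell, A-type ephrins through a lipid anchor and B-type ephrins through a transmembrane protein. Outside the nervous system the same families pattern blood vessels and epithelia, and neuroendocrine cells express many neuronal genes.

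Array medians lay between 5.67 and 5.82 log2 units, values between 1.68 and 14.5, and pairs of arrays correlated over rows with r between 0.891 and 0.986. The median row, at 5.75 log2, is used below as a mark of low signal. Of the 4 prostate markers measured, the homeobox gene Hoxb13 had a median of 8.68 log2. The other 3, which encode secreted proteins, had medians below the median row: Pbsn at 3.58, Msmb at 4.69 and Tgm4 at 5.52. Their highest values were 8.70 in P425 for Pbsn and 11.6 and 11.3 in P219 for Msmb and Tgm4. P219 was next for Pbsn, at 7.60, and P425 was next for Msmb and Tgm4, at 11.3 each. The neuroendocrine granule protein Chga had a median of 10.09. A score over 16 neuroendocrine markers (the mean of each gene's deviation from its own mean) fell into separate clusters: P471 at -2.87, P425 at -2.05, P966 at -2.00 and P1276 at -1.64, and the other 23 tumours between -0.13 and 0.87. Hoxb13 was lowest in P471 at 4.47, followed by P966 at 4.98 and P1276 at 5.44, whereas P425 held its highest value, 9.39. Values without these 4 tumours are given beside the results on spread, modes and the endothelium and fibroblast scores. Of the 5 Schwann cell markers measured, 3 had a mean above the median row: Mbp ranged from 5.87 to 7.10, Ngfr from 5.63 to 7.63 and Sox10 from 5.51 to 6.26. S100b had a median of 4.22 and Cdh19 ranged from 2.91 to 4.10.

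Axon guidance genes varied more between tumours than the genes of the array did at large. The median SD was 0.73 log2 over the 58 members, against 0.30 over all 22180 genes, and 55 members lay above that all-gene median. The exceptions were Sema4d at 0.30, the B-type ephrin Efnb1 at 0.28 and Plxnb2 at 0.21. The lowest and highest tumour differed over 4-fold in 45 of 58 members (77.6%), against 25.3% of all genes, and over 16-fold in 8 (13.8%), against 4.62%. These members were mostly well above low signal: 54 had a mean above the median row and 40 stayed above it in every tumour. Among genes with a mean above the median row, 42 of 54 members ranged over 4-fold, against 32.7% of such genes, and the median SD was 0.75 against 0.37. In the 23 tumours of the higher neuroendocrine cluster, an alternative chosen after seeing the data, the median SD was 0.58 for members and 0.27 for all genes, and 38 members (65.5%) ranged over 4-fold, against 16.9% of all genes.

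**Figure D1:**
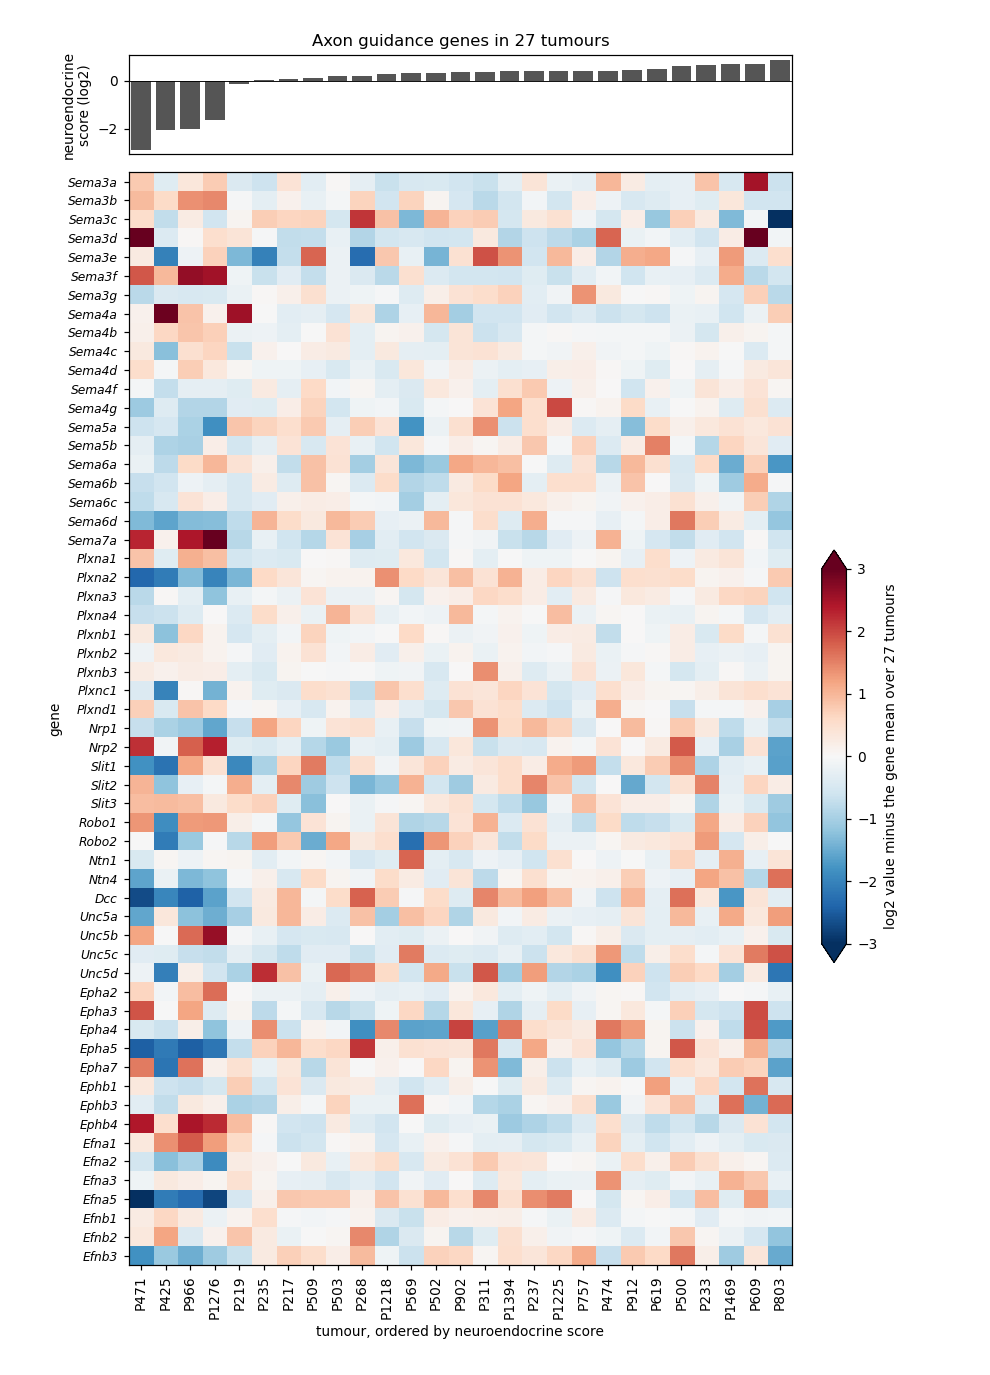
Colour shows each member's log2 value minus its mean over the 27 tumours, with tumours as columns and the 58 measured axon guidance genes as lines grouped by role. P471 held the lowest value of 9 members and P425 of 8, and P966 the highest value of 7.

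The spread was not even between families. Families are counted here over the members only. All 7 secreted semaphorins and all 5 netrin receptors among them ranged over 4-fold, with median SDs of 0.97 and 0.80 log2. The 5 EphA receptors among the members, with a median SD of 0.90, did so too. So did Robo1 and Robo2, both neuropilins, both member netrins and all 3 Slits. Other EphA receptors and Robos were kept on a list of further receptors and ligands, used below. Of these only Epha1 ranged over 4-fold, from 4.39 to 6.93. Epha6 ran from 3.87 to 4.71, Epha8 from 5.99 to 7.70 and Epha10 from 5.96 to 6.63. Robo3 ran from 3.34 to 3.97 and Robo4 from 5.40 to 6.85. Plexins were the flattest family, with a median SD of 0.45, and 3 of 9 ranged over 4-fold. Membrane semaphorins lay between, with 8 of 13 over 4-fold and a median SD of 0.61.

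Among the secreted semaphorins, Sema3c, which guides vessels and neural crest in the developing heart, had the widest range. Its log2 values ran from 4.80 in P803 through a median of 8.46 to 10.36 in P268, a range of at least 47.5-fold, since P803 lay below the median row. Sema3e, the ligand of Plxnd1 on endothelium, ran from 6.02 in P268 through 8.29 to 10.23 in P311, an 18.5-fold range. P268 thus stood at opposite ends of the range for these secreted cues.

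Sema3f, a neuropilin-2 ligand known as an inhibitor of vessel growth, ran from 6.81 in P1218 through 7.25 to 10.27 in P966. Its values formed separate modes: 22 tumours lay between 6.81 and 8.10, and P966, P1276 (10.15), P471 (9.49), P1469 (8.73) and P425 (8.59) lay between 8.59 and 10.27. Those 5 hold the 4 tumours of low neuroendocrine score and 1 more. Sema3d was low in most tumours, with a median of 4.89, 24 tumours between 4.26 and 5.71, and an upper mode of P471 at 8.49, P609 at 8.36 and P474 at 6.96. Sema3b, which also binds neuropilins, ran from 5.70 in P311 through 6.36 to 7.94 in P1276.

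The remaining secreted semaphorins were narrower or low. Sema3a, a classic repellent of sensory axons, lay below the median row in 22 tumours, with a median of 5.01, a lowest value of 4.61 in P1218 and a highest of 7.78 in P609. Sema3g, which is made by endothelium, ran from 6.03 in P471 through 6.81 to 8.20 in P757.

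Among the membrane-bound semaphorins, Sema7a, a lipid-anchored semaphorin that acts on plexin C1 and integrins, ran from 6.22 in P268 through 6.89 to 10.70 in P1276, a 22.4-fold range. It had separate modes, with P1276, P966 (9.64) and P471 (9.50) between 9.50 and 10.70 and the other 24 tumours between 6.22 and 8.25. Sema4a, which also acts on immune cells, ran from 5.68 in P902 through 6.42 to 9.63 in P425, with P219 next at 9.25. P425 and P219 were also the top tumours for the prostate markers Pbsn, Msmb and Tgm4. Sema4g ran the other way in 3 of the tumours named above: P471 at 4.92 was lowest, followed by P966 and P1276 at 5.14 each, against a median of 5.95 and a highest value of 8.0 in P1225.

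The other membrane semaphorins had narrower ranges than Sema7a. Sema5a ran from 6.27 in P1276 through 8.42 to 9.48 in P311, Sema5b from 6.76 in P966 through 7.69 to 9.24 in P619, and Sema6d, a ligand of Plxna1, from 6.71 in P425 through 8.25 to 9.87 in P500. P425, P471 (6.98), P966 (6.99) and P1276 (7.01) were the 4 lowest tumours for Sema6d. Sema6a ran from 5.65 in P803 to 8.54 in P902. Sema6b had a range of 4.76-fold, and Sema4b, Sema4c, Sema4d, Sema4f and Sema6c each stayed under 4-fold, between 2.27-fold for Sema4d, which acts on Plxnb1, and 3.76-fold for Sema4c.

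Plexins and neuropilins receive these cues. Plxna2, a receptor for class 3 and class 6 semaphorins, ran from 6.67 in P471 through 9.37 to 10.39 in P1218, and its lower mode held 5 tumours: P471, P425 (6.93), P1276 (7.02), P219 (7.64) and P966 (7.71), with the other 22 between 8.40 and 10.39. Plxna3 varied less, from 7.46 in P1276 through 8.71 to 9.36 in P609. The co-receptor Nrp2 ran from 5.79 in P803 through 7.16 to 9.73 in P1276, with P471 at 9.59, P500 at 9.23 and P966 at 9.20 close behind. Nrp1, the co-receptor shared with VEGF, was lowest in P1276 at 7.55, with a median of 9.01 and a highest value of 10.46 in P311. P1276 therefore held the highest Nrp2 and the lowest Nrp1.

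Of the other plexins, Plxnb2, a receptor of class 4 semaphorins, ranged 1.7-fold, from 9.53 in P235 to 10.29 in P509. Plxna1 ranged 3.09-fold, and P966, P1276 (9.84) and P471 (9.79) were its highest tumours. Plxnc1, the receptor of Sema7a, ranged 7.18-fold, from 6.45 in P425 through 8.64 to 9.29 in P1218, with P1276, the highest tumour for Sema7a, next to lowest at 7.02. Plxnd1 ranged 4.3-fold, from 6.09 in P803 to 8.19 in P474, and Plxna4, Plxnb1 and Plxnb3 stayed under 4-fold.

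**Figure D2:**
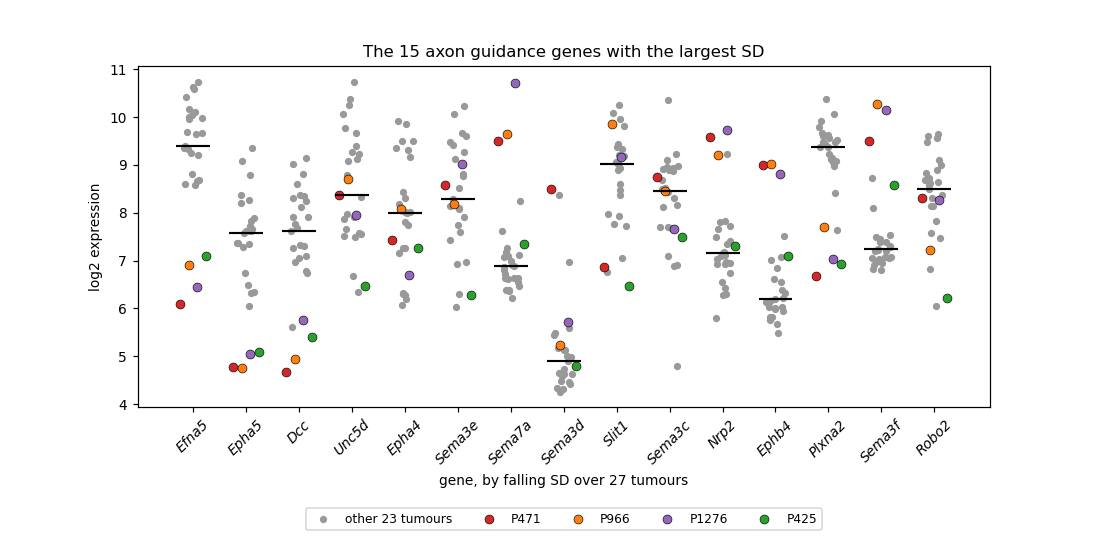
Each point is 1 tumour's log2 value for the 15 members with the largest SD over the 27 tumours, with members on the horizontal axis, log2 values on the vertical axis, a bar at the median and P471, P966, P1276 and P425 in colour. Efna5 ranged from 6.10 to 10.75 and Sema3c from 4.80 to 10.36.

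Of the Slits, repellents for axons that cross the midline, Slit1 ran from 6.47 in P425 through 9.01 to 10.25 in P509. P219 (6.77), P471 (6.88) and P803 (7.06) were also low, but P966 was high at 9.86. Slit2 ran from 5.27 in P912 through 6.75 to 8.29 in P233. Slit3 ran from 5.91 in P509 through 7.21 to 8.12 in P425, so P509 and P425 stood at opposite ends for Slit1 and Slit3.

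Robo1 and Robo2, the Slit receptors among the members, were above the median row in every tumour. Of the Robos on the list of further receptors, Robo3 lay below it in every tumour, between 3.34 and 3.97. Robo4 was lowest in P509, at 5.40. Robo1 had a median of 10.25, with a lowest value of 8.30 in P425 and a highest of 11.48 in P471. P1276 (11.46) and P966 (11.43) were next, so 3 of the 4 tumours of low neuroendocrine score held its top values while P425 held its lowest. Robo2 ran from 6.05 in P569 through 8.49 to 9.65 in P502.

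In the netrin family the ligands Ntn1 and Ntn4 had medians of 6.37 and 7.50. Ntn1 was highest in P569 (8.27), P1469 (7.59) and P500 (7.20). Ntn4, a netrin of basement membranes, was lowest in P471 (5.82), P966 (6.06) and P1276 (6.20) and highest in P803 (9.07). The attractive receptor Dcc ran from 4.68 in P471 through 7.62 to 9.14 in P268, at least 22.1-fold, with P966 (4.94), P425 (5.40), P1469 (5.62) and P1276 (5.76) at its low end.

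The repulsive netrin receptors each had an order of their own. Unc5d ran from 6.35 in P803 through 8.37 to 10.74 in P235, a 21-fold range. Unc5b, which is also found on endothelium, ran from 6.29 in P1225 through 6.62 to 9.45 in P1276, and its upper mode held P1276, P966 (8.55) and P471 (8.03), the same tumours as the upper mode of Sema7a. Unc5a was lowest in those tumours: P471 at 6.13, P1276 at 6.22 and P966 at 6.45. Dcc and Unc5a were thus low, and Unc5b high, in P471, P966 and P1276.

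Among the EphA receptors, Epha5 ran from 4.76 in P966 through 7.57 to 9.36 in P268, at least 24.3-fold. P966, P471 (4.77), P1276 (5.04) and P425 (5.08) were its 4 lowest tumours, and the next, P474, was at 6.04. Its ligand Efna5, a lipid-anchored ephrin, had the largest SD of all members at 1.26 log2 and ran from 6.10 in P471 through 9.39 to 10.75 in P1225, a 25-fold range. The same 4 tumours were lowest, P471, P1276 (6.44), P966 (6.90) and P425 (7.10), and the next was at 8.59 in P500. Ligand and receptor were therefore both at their low end in the 4 tumours of low neuroendocrine score.

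Other Eph receptors did not share that order. Epha4 ran from 6.07 in P268 through 7.99 to 9.93 in P902, and Epha7 from 6.18 in P425 through 8.50 to 10.01 in P966, with P471 next at 9.94. Epha2, an epithelial Eph receptor, was below the median row in 25 tumours, and its upper mode held P1276 (6.67), P966 (5.91) and P471 (5.62). Ephb4, the venous receptor of Efnb2, ran from 5.48 in P1394 through 6.20 to 9.03 in P966, with P471 at 8.99 and P1276 at 8.82, and the next tumour, P219, at 7.52. Thus Epha2 and Ephb4 were highest in the 3 tumours that also held the top of Sema7a and Unc5b.

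Among the other ephrins, Efna1, the main ligand of Epha2, ran from 6.58 in P217 through 7.0 to 9.07 in P966, with P425 (8.60) and P1276 (8.49) next. Efna2 ran from 6.72 in P1276 through 8.76 to 9.40 in P311. The neuronal B-type ephrin Efnb3 ran from 6.47 in P471 through 8.57 to 9.89 in P500, with P803 (6.79), P966 (6.83) and P425 (7.18) also low. P966 and P425 were thus near the high end for Efna1 and near the low end for Efnb3.

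Of the remaining Eph receptors and ephrins, Epha3 lay below the median row in 13 tumours and was highest in P609 (7.87), P471 (7.80) and P966 (7.09). Ephb3 ran from 7.24 in P609 through 8.60 to 10.35 in P803, and Ephb1 from 5.47 in P966 through 6.14 to 7.79 in P609. Efnb2, the arterial ephrin, ran from 6.19 in P803 through 7.33 to 8.80 in P268. Efnb1 and Efna3 ranged 2.42-fold and 3.81-fold.

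In all, 6 of 58 members (10.3%) had separate modes, with means at least 1 log2 apart and 3 or more tumours in each, against 4.56% of all genes: Sema3d, Sema3f, Sema7a, Plxna2, Unc5b and Epha2. Of the 54 members with a mean above the median row, 4 had modes, against 5.52% of such genes. In the 23 tumours of the higher neuroendocrine cluster, 0 of 58 members had separate modes, against 1.61% of all genes. Leaving out the other 4 tumours left fewer than 3 in the smaller mode of each of these 6 genes. Those modes therefore could not meet the rule there, and no conclusion is drawn from this count. P471 held the lowest value of 9 members (15.5%, against 6.62% of all genes), P425 of 8 (13.8%, against 11.5%) and P803, of the higher neuroendocrine cluster, of 6 (10.3%, against 3.87%). The highest value was in P966 for 7 members (12.1%, against 5.66%) and in P1276 for 6 (10.3%, against 6.35%).

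**Figure D3:**
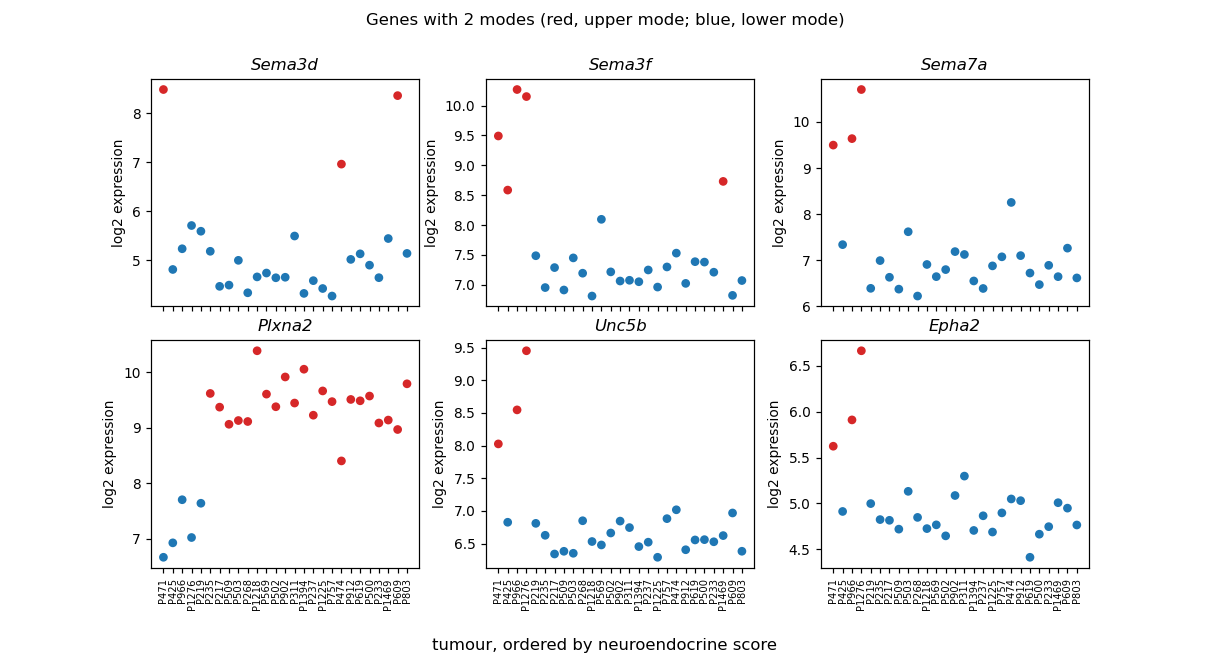
Each point is 1 tumour's log2 value for the 6 members with separate modes, on the vertical axis, with tumours on the horizontal axis in order of neuroendocrine score, the upper mode in red and the lower in blue. The upper modes of Sema7a, Unc5b and Epha2 hold the same 3 tumours, P471, P966 and P1276.

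Promoters are shown for Sema7a, Unc5b, Epha2 and Ephb4, which were highest in P471, P966 and P1276, and for Efna5 and Plxna2, which were low there. Each is the 250 bases upstream of the annotated start in RefSeq on GRCm38.p6, at chr9:57939862-57940111 (plus strand) for Sema7a, chr10:60831582-60831831 (minus strand) for Unc5b, chr4:141300971-141301220 (plus strand) for Epha2, chr5:137349859-137350108 (plus strand) for Ephb4, chr17:62881318-62881567 (minus strand) for Efna5 and chr1:194619579-194619828 (plus strand) for Plxna2. Capitals mark the GC box, GGGCGG or its complement CCGCCC, the motif bound by SP family factors.
Sema7a: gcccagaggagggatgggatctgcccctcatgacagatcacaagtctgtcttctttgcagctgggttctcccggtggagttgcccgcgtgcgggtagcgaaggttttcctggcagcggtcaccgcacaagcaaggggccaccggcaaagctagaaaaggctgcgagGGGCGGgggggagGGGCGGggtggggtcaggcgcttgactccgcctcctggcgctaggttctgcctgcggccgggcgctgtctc
Unc5b: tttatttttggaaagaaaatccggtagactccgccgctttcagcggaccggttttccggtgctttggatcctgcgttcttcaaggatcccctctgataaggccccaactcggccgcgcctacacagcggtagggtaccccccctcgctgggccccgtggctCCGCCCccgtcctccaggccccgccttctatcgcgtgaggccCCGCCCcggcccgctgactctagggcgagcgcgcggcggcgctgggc
Epha2: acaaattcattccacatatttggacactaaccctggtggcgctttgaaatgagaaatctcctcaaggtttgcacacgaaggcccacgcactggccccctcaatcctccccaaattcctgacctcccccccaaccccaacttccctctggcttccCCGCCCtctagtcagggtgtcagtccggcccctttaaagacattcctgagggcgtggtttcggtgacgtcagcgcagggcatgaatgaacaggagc
Ephb4: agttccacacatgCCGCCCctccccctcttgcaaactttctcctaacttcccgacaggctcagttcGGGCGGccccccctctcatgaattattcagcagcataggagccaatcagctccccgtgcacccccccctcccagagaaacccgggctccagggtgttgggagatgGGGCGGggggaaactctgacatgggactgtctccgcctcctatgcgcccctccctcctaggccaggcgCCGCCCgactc
Efna5: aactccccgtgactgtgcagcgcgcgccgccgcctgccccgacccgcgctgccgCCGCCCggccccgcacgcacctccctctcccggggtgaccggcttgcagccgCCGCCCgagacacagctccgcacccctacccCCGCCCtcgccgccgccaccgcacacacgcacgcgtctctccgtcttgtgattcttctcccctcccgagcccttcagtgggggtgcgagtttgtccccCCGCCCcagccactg
Plxna2: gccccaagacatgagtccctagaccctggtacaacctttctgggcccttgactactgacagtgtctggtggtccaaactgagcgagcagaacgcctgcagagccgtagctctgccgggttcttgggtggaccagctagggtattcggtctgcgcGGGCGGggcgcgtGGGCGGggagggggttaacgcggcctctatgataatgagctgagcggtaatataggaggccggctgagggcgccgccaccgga

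A GC box was found 4 times each in the Ephb4 and Efna5 windows, 2 times each in Sema7a, Unc5b and Plxna2 and once in Epha2, so genes at opposite ends in these tumours both carried it. Over the 65 promoters listed for 49 members, 70.8% held a GC box on either strand, against 32.7% of all 32851 promoters in the table. The AP-1 motif TGANTCA was in none of the 6 windows; it was in 4.62% of member promoters and 6.75% of all. The E-box CAGCTG was in 12.3% of member promoters and 13% of all. These are matches of letters on both strands and not binding sites.

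The second comparison asked whether members move with vessel or stroma content, since several act in endothelium. The measure was a score over 15 endothelial marker genes, with no member among them, fitted against every gene by limma as a slope per SD of the score. Vwf had the largest SD of the 15. It was at 10.4 in P803, 10.3 in P1469 and 10.9 in P569, against a median of 6.49. Cdh5 was at 7.43, 7.95 and 7.45 in these tumours, against a median of 7.85. The score is a plain mean, so Vwf weighs most in it, and a score without Vwf was not fitted. Along the endothelium score, 16 of 58 members (27.6%) passed an adjusted p of 0.05, 8 rising and 8 falling, against 9.48% of 22165 genes tested (5.53% rising, 3.96% falling). The median slope was 0.00 for the members and 0.00 for all genes. With each marker gene standardised before averaging, 13 members passed limma's test, 7 rising and 6 falling, against 9.51% of genes. When only genes with a mean above the median row were fitted, 16 of 54 members passed, 7 rising and 9 falling. The share of such genes that passed was 16.8%, so the members stood less far above it.

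The members that rose were Sema7a by 0.71 ± 0.16 log2 per SD (SE, adjusted p = 0.0078), Ephb4 by 0.70 ± 0.13 (adjusted p = 0.0029), Sema3f, Unc5b, Efna1, Slit3, Sema3b and Epha2, the last at 0.29 ± 0.07 (adjusted p = 0.013). The members that fell were Efna5, with a slope of -0.74 ± 0.19 (adjusted p = 0.019), Dcc, Efnb3, Plxna2, Slit1, Sema4g, Efna2 and Plxna3, the last at -0.23 ± 0.07 (adjusted p = 0.045). Ephrin ligands stood on both sides: Efna1 rose, while Efna5, Efna2 and Efnb3 fell. Marker lists of other cells moved along the same score: 10 of 14 luminal epithelial, 8 of 13 fibroblast and 5 of 6 pericyte markers rose, and 5 of 16 neuroendocrine markers and 1 luminal marker fell. With the fibroblast, neuroendocrine and luminal scores as covariates 0 members passed limma's test (6 genes of all did).

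These calls rested on few tumours. Without P471 5 members were called, without P1276 6 and without P966 8, against 2.16%, 3.32% and 4.16% of all genes. Calls over all genes thus fell too. In the 23 tumours of the higher neuroendocrine cluster limma called 0 members, against 0.302% of genes. All 16 kept the sign of their slope there, but those tumours are part of the 27 that picked the genes, so this adds no support. Of all 58 members, 23 (39.7%) had an unadjusted p under 0.05 in the 27 tumours, against 24.6% of all genes. Nearest to the threshold in the 23 tumours was Slit1, with a slope of -0.62 ± 0.14 per SD (adjusted p = 0.053).

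Along a score over 13 fibroblast markers, 13 of 58 members (22.4%) passed, 9 rising and 4 falling, against 10.7% of 22167 genes (6.63% rising, 4.08% falling). The risers were Ephb4 at 0.74 ± 0.12 log2 per SD (adjusted p = 0.00036), Slit3 at 0.48 ± 0.08 (adjusted p = 0.00067), Sema7a, Nrp2, Sema3f, Epha7, Unc5b, Efna1 and Sema3b. The fallers were Ntn4, with a slope of -0.51 ± 0.10 (adjusted p = 0.0026), Efna5, Plxna2 and Sema4g. Of these 13, 10 were also called along the endothelium score, and 19 members were called along either. The overlap was not counted over all genes. Fibroblast and endothelial markers rose along each other's scores (8 of 13 and 9 of 15), so no trait of the members is read from it. The median slope was -0.03 for members and -0.01 for all genes. When only genes with a mean above the median row were fitted, 14 of 54 members passed, 9 rising and 5 falling, against 16% of such genes.

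Neuroendocrine markers fell along the fibroblast score in 11 of 16 cases, and 9 of 15 endothelial, 8 of 9 macrophage and 3 of 4 T and NK cell markers rose, while 0 of 5 Schwann cell markers passed limma's test in either fit (1 had an unadjusted p under 0.05, along endothelium). With the other 3 scores as covariates 0 members passed (4 genes of all did). Without P471 4 members were called along the fibroblast score and without P966 5, against 2.78% and 4.97% of all genes. In the 23 tumours of the higher neuroendocrine cluster, Slit3 alone was called, at 0.40 ± 0.09 log2 per SD (adjusted p = 0.047), against 0.609% of genes, and all 13 kept their sign. Ephb4 had a slope of 0.32 ± 0.08 there (adjusted p = 0.07).

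**Figure D4:**
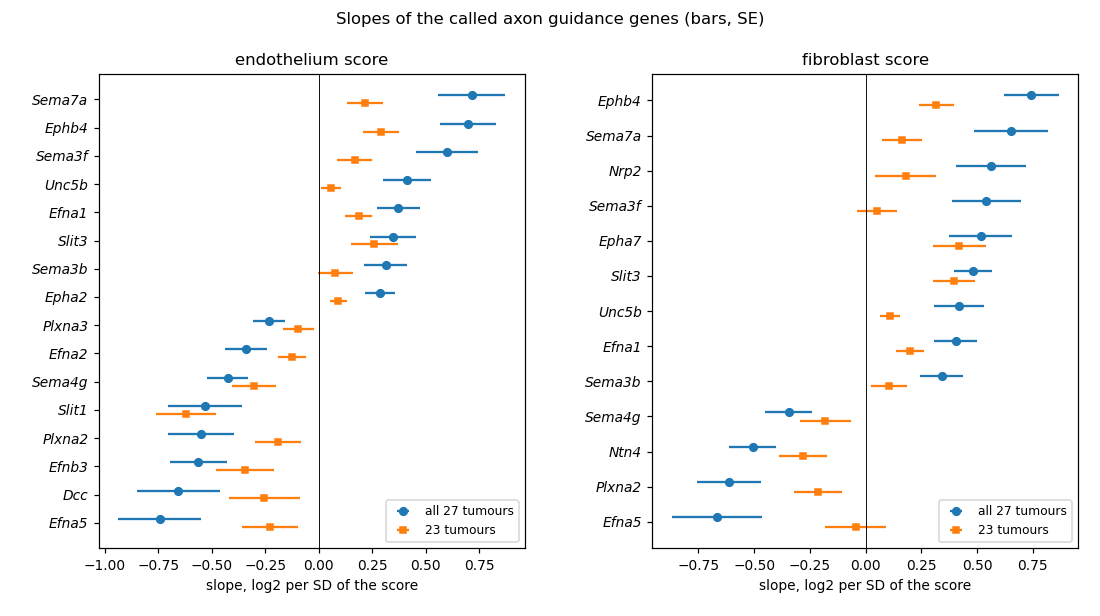
Points are limma slopes in log2 per SD of the endothelium score (left) or the fibroblast score (right) for the members called over the 27 tumours, with bars showing SE and squares giving the 23 tumours of the higher neuroendocrine cluster, per SD of the score among them. Over the 27 tumours Ephb4 has slopes of 0.70 and 0.74, and Efna5 of -0.74 and -0.67.

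The neuroendocrine and luminal scores were fitted within their own clusters. Along the neuroendocrine score, over its 23 higher tumours, limma called 0 of 22164 genes, so 0% of the background. An unadjusted p under 0.05 was found for 4 members (6.9%), against 2745 genes of all (12.4%). Among them were Unc5c at 0.48 ± 0.13 log2 per SD (adjusted p = 0.20) and Sema3c at -0.59 ± 0.19 (adjusted p = 0.23), both named after their values were seen. The luminal score split into 19 tumours between -1.52 and 0.50 and 8 between 1.91 and 2.74. In the 19, Sema4a rose by 0.36 ± 0.06 per SD (adjusted p = 0.0075) and Epha4 fell, with a slope of -0.93 ± 0.17 (adjusted p = 0.009), against 0.726% of 22166 genes (0.695% rising, 0.0316% falling). Leaving out P502 called 0 members, against 0.00902% of all genes. Without P502 and P268 the limma slopes were 0.10 for Sema4a (adjusted p = 0.85) and -0.74 for Epha4 (adjusted p = 0.5). P268 and P502 also had the highest scores over the prostate markers among the 19, at 2.14 and 1.27. In the 8, limma called 0 of 22166 genes, with 14 members (24.1%) and 2284 genes (10.3%) at an unadjusted p under 0.05.

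**Figure D5:**
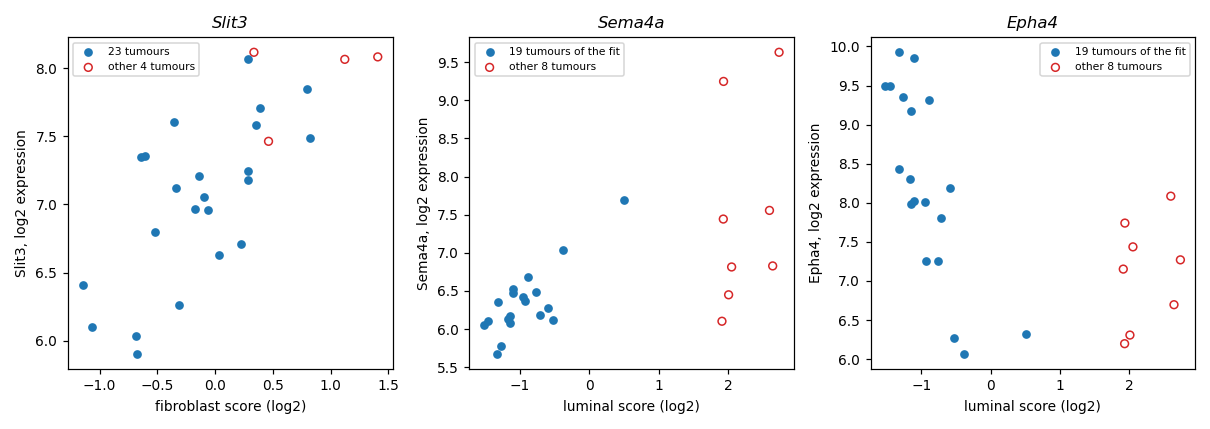
Each point is 1 tumour, with Slit3 set against the fibroblast score and Sema4a and Epha4 against the luminal score, all in log2 units, and open points for the tumours left out of the fit within 1 cluster. Per SD of the score among the tumours fitted, not per plotted log2 unit, Slit3 had a slope of 0.40 in the 23 tumours. In the 19 tumours Sema4a had a slope of 0.36 and Epha4 of -0.93 per SD.

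Other genes of the pathway were counted from lists of further guidance receptors and ligands and of intracellular signalling genes. Along the endothelium score, 4 of 21 receptors and ligands rose and 1 fell, and 2 of 31 signalling genes rose and 3 fell, against 5.53% of all genes rising and 3.96% falling. The hepatocyte growth factor receptor Met, a plexin relative, rose by 0.67 ± 0.18 (adjusted p = 0.022), and the netrin Ntn3 fell, with a slope of -0.35 ± 0.09 (adjusted p = 0.013). The collapsin response mediator Crmp1, which acts downstream of semaphorins, had a slope of -0.76 ± 0.22 (adjusted p = 0.028), and the Robo effector Srgap3 of -0.73 ± 0.16 (adjusted p = 0.007). In the 23 tumours of the higher neuroendocrine cluster none of these 4 was called by limma: the slopes were 0.34 for Met (adjusted p = 0.34), -0.22 for Ntn3 (0.35), -0.15 for Crmp1 (0.52) and -0.57 for Srgap3 (0.11). Of both lists the endothelial receptor Robo4, named after its value was seen, was called there, at 0.22 ± 0.04 (adjusted p = 0.0096).

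Along the fibroblast score 2 of 21 receptors and ligands rose and 1 fell, and 1 of 31 signalling genes rose and 2 fell, against 6.63% of all genes rising and 4.08% falling. Met rose by 0.77 ± 0.17 (adjusted p = 0.0035), and Ephb6, an Eph receptor that lacks kinase activity, had a slope of -0.46 ± 0.11 (adjusted p = 0.0068). Crmp1 had a slope of -0.83 ± 0.21 (adjusted p = 0.011) and its relative Dpysl5 of -0.43 ± 0.14 (adjusted p = 0.037). In the 23 tumours none of these 4 was called: the slopes were 0.42 for Met (adjusted p = 0.15), -0.33 for Ephb6 (0.3), -0.064 for Crmp1 (0.87) and -0.079 for Dpysl5 (0.76). Along the neuroendocrine score 0 genes of both lists passed limma's test, with 5 of each at an unadjusted p under 0.05 (12.4% of all genes), and 0 passed along the luminal score, with 2 receptors or ligands and 3 signalling genes at an unadjusted p under 0.05 in its 19 tumours (9.07% of all genes) and 5 of each in its 8 (10.3%).

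Finally, ligands were set against their receptors over tumours. Where a gene's values fell into separate clusters, the relation was computed within clusters of at least 6 tumours. Of 44 pairs with a known binding or co-receptor role, 43 were measured, giving 43 relations over 21 to 27 tumours, of which 24 had r above 0. By a two-sided permutation test 0 passed an adjusted p of 0.05, and 7 had an unadjusted p under 0.05. The pairs below were chosen after their values were seen.

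Ntn1 with its receptor Unc5c had the largest relation, r = 0.623 (permutation p = 0.0018, adjusted p = 0.079) and rho = 0.393 (permutation p = 0.065, adjusted p = 0.41). It covers 23 tumours, leaving out P803, P609, P569 and P474, which form an upper cluster of Unc5c. Without P1469 and P500, the tumours farthest from the median of Ntn1, r was 0.358. With the 4 tumours of low neuroendocrine score also left out, this pair alone was called, at r = 0.69 over 19 tumours (permutation test, adjusted p = 0.04), with rho = 0.551 (adjusted p = 0.27) and r = 0.488 without P1469 and P500.

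Sema3c with Nrp1 had r = 0.444 over 27 tumours (permutation p = 0.019, adjusted p = 0.17) and rho = 0.504 (permutation p = 0.0082, adjusted p = 0.29), and r = 0.434 without P803 and P268. Plxna1, a plexin that partners Nrp1, went against Sema5a at r = -0.516 (permutation p = 0.0058, adjusted p = 0.10) and rho = -0.477 (permutation p = 0.013), and r = -0.373 without P1276 and P569. It also went against Nrp1 at r = -0.504 (permutation p = 0.0073, adjusted p = 0.10) and rho = -0.366 (permutation p = 0.061), and r = -0.388 without P1276 and P311. None of these passed the adjustment over the 43 relations. Both Plxna1 relations were weaker in the 23 tumours of the higher neuroendocrine cluster. There r was -0.274 with Sema5a (permutation p = 0.21) and -0.25 with Nrp1 (permutation p = 0.25). Sema3c with Nrp1 had r = 0.514 in those tumours (permutation p = 0.0097, adjusted p = 0.18).

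Efna5 and Epha5, both at their low end in the 4 tumours of low neuroendocrine score, had r = 0.385 over the other 23 (permutation p = 0.07, adjusted p = 0.3) and rho = 0.372 (permutation p = 0.082), and r = 0.649 without P500 and P1225. The vessel pair Efnb2 and Ephb4 had r = 0.193 (permutation p = 0.37) and rho = 0.0522 (permutation p = 0.81) over the 24 tumours outside the upper cluster of Ephb4, and r = 0.0939 without P268 and P425. Neither relation passed.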

How the data were processed

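Values are the authors' deposited log2 expression values, 41345 rows for 27 arrays, used as deposited. Partek is the tool listed in the submitters' processing notes. The sources used here do not give how probe signals were corrected, summarised and normalized. No batch, slide or scan date is given in the labels. Array medians were close together, so no further scaling was applied. Arrays hold no read depth, so the number of arrays limits the precision.

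Rows were named through the platform's probe table: 23521 rows had 1 symbol, 1814 several and 16010 none, and rows of several or none were not used. For the 1082 genes with several rows, that of the highest mean was taken. Among members these were Plxna1 (8.92 kept, 5.12 for the other row), Ephb1 (6.16 and 5.49) and Plxnb1 (7.99 and 5.65). RefSeq promoters on GRCm38.p6 were matched by symbol for 49 of 58 members.

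Scores are the mean deviation of a marker list. Slopes per SD of a score were fitted over all genes with limma 3.58.1 (lmFit, eBayes with trend; R 4.3.3), with Benjamini-Hochberg adjustment over all genes at 0.05; score genes were left out of the tests. Clusters used mclust 6.1.1 (BIC gain over 6, Ashman D over 2, at least 3 tumours), and modes a BIC gain over 10 and 1 log2 between mode means. A fit was made within each cluster of at least 6 tumours. Pairs used scipy 1.17.1 and numpy 2.4.6, with 100000 permutations. The scripts were tested on simulated data. Alternatives were quantile scaling, median centring, the mean of a gene's rows, a filter on low values, a standardised score, the other 3 scores as covariates, and fewer tumours. Named genes were the 15 members with the largest SD, those called in any fit, those with modes, both genes of called pairs, and the 2 largest slopes among called genes of each pathway list; the other members are given by their range. Members, marker lists and pathway lists were chosen with earlier results of these data known.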

Additional observations from a re-analysis of the deposited data

How the results depend on the processing

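Quantile scaling, median centring, the mean of rows, a filter on low values and a standardised score changed no count of members by over 1.5 times. Counts over all genes did change. Along the neuroendocrine score 5 genes were called with quantile scaling, 12 with centring, 1 with the filter and 40 with the standardised score, against 0. Along the luminal score 99 were called with the filter, against 161. The filter also lowers the number of genes tested, and the luminal shares were 0.753% with it and 0.726% without. With the filter, the share of genes called was 16.8% along endothelium, against 9.48%, and 16% along fibroblast, against 10.7%. With the other 3 scores as covariates, 0 members were called along the endothelium, fibroblast or luminal score (limma; 6 and 4 genes of all were called for the first 2 of these), and 5 slopes reversed along the fibroblast score: Sema3f had a slope of -0.078, Sema7a of -0.096, Efna5 of 0.18, Crmp1 of 0.052 and Dpysl5 of 0.021; the cause was not tested. Without the 2 farthest tumours, 7 were called along endothelium, 1 along fibroblast and 0 along luminal, against 3.72%, 0.803% and 0.00451% of all genes. In the 23 tumours of the higher neuroendocrine cluster, chosen after seeing the data, the counts were 0 and 1, with 0 members in separate modes and 1 pair called, Ntn1 with Unc5c at r = 0.69 over 19 tumours (adjusted p = 0.04; 0.488 without P1469 and P500). Leaving out 1 tumour in turn gave 5 to 18 members along endothelium (18 without P235), 4 to 18 along fibroblast (18 without P803), 0 to 2 along luminal and 0 to 0 along neuroendocrine. The share of all genes called without P471 was 2.16% along endothelium and 2.78% along fibroblast. It was 13.8% along endothelium without P235 and 13.6% along fibroblast without P803. Over the other settings, 46 counts stayed within 1.5 times and 10 moved; of single genes, 197 kept their call, 107 lost it and 5 changed sign. No paired analysis was possible because all tumours form 1 group. Values near the median row are close to background, so ranges of such genes are lower bounds.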

Other observations

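Some members were high in tumours outside the low neuroendocrine cluster, values that belong to no comparison. P609 held the highest Sema3a (7.78, next P474 at 6.28), Epha3 (7.87) and Ephb1 (7.79, next P619 at 7.39), and was among the top tumours for Sema3d (8.36) and Unc5c (7.35). The netrin receptor Unc5c, with a median of 5.45, was above 7 in P803 (7.70), P609, P569 (7.34) and P474 (7.08). Ephb3, a receptor for B-type ephrins, was highest in P803 (10.35), P569 (10.31) and P1469 (10.30), against 9.52 in the next tumour, P500. Sema6a, a membrane semaphorin, was lowest in those same tumours, at 5.65 in P803, 5.91 in P1469 and 6.04 in P569. These 3 tumours belong to the 8 of the higher luminal cluster, but the rest of that cluster did not share both extremes. There Ephb3 ran from 7.71 in P219 to 8.93 in P966, and Sema6a from 6.61 in P425 to 8.40 in P1276. No test was run on these patterns, which were chosen after the values were seen.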
